A study of Mus musculus with 12 samples.

Results

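The broad H3K4me3 regions of mouse fetal liver are the stretches in which trimethylation of lysine 4 on histone H3 ran on for 5 kb or more. The members were chosen by the measured width of H3K4me3 and by nothing else. They were found by merging the H3K4me3 peaks of both fetal liver libraries and keeping each merged stretch that held a peak of both, which is called a consensus region here. Of 13600 consensus H3K4me3 regions on chromosomes 1 to 19, X and Y, 720 (5.29%) were 5 kb or wider, and they are the subject of this account. They are described against the 8383 consensus H3K4me3 regions of 1 to 3 kb. A further 2542 regions had widths between 3 and 5 kb and 1955 were narrower than 1 kb.

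All samples came from C57BL/6 mouse embryos at embryonic day 14.5, with no genotype or treatment other than strain and age in the labels. ChIP-seq of whole fetal liver was available as 3 libraries for H3K4me1 and 2 each for H3K4me2, H3K4me3 and H3K27ac, besides 1 input DNA library that was not analysed here. Accessible chromatin was mapped by ATAC-seq in 2 libraries of proerythroblasts, the first recognisable precursors of red cells. The histone marks therefore come from a mixture of red cell precursors, hepatocytes and other liver cells, and accessibility from 1 cell type, so overlap between the assays does not show that both occurred in the same cell. The labels do not say whether replicate libraries came from separate embryos, so the spread between them may be technical. For H3K4me2 the labels name different antibody suppliers in different fields, and for H3K4me3 and H3K27ac different catalogue numbers of 1 supplier, so which antibodies were used is unsettled.

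H3K4me3 is laid down mainly at active promoters by methyltransferase complexes of the SET1 and MLL family. H3K4me2 reaches further out from promoters and also marks enhancers, H3K4me1 is typical of enhancers and of promoter flanks, and H3K27ac marks promoters and enhancers in use. Unusually broad H3K4me3 has been described in many tissues at genes that specify the identity of the cell. The coordinates are those of the mm9 build, counted from 1, and no gene annotation of that build was used here, so regions are given by position and no gene is assigned to them.

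Depth is unknown, since the files hold peaks and no read counts. The libraries listed between 14027 and 16886 peaks for H3K4me3, 23733 and 28387 for H3K27ac, 41765 and 42334 for H3K4me2, 42323 to 52387 for H3K4me1 and 18441 and 28980 for ATAC. Comparisons given with a p were made within each library and tested over libraries by a two-sided exact paired permutation test, in which the sign of each library's difference is flipped. Other contrasts, among them those between members of different width or H3K4me3 fold, are described without a test. The smallest p it can give is 0.5 with 2 libraries and 0.25 with 3, so no comparison could pass 0.05, and differences are read against the spread between libraries.

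The members covered 4.84 Mb, which was 15.2% of all bases in consensus H3K4me3 regions. Their widths ran from 5003 to 26723 bp with a median of 6112 bp, against a median of 1900 bp for the 1 to 3 kb regions. Most members lay close to the limit, with 132 of them at 8 kb or wider and 42 at 10 kb or wider. The H3K4me3 values that follow chose the members and are given as a description.

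**Figure D1:**
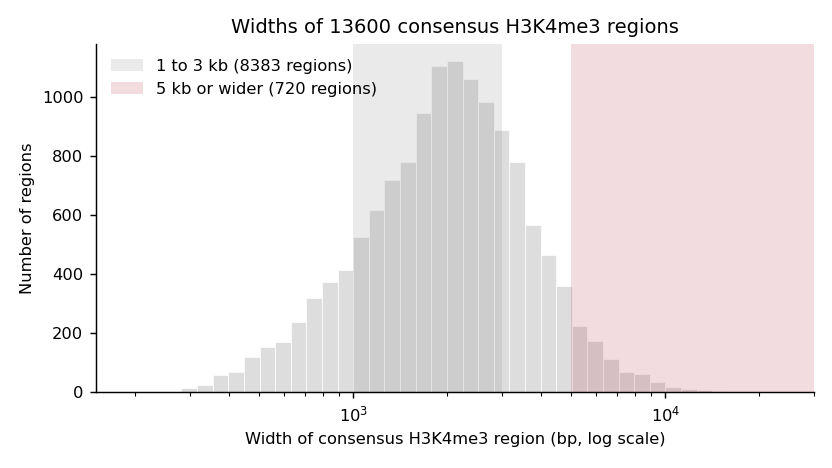
Number of consensus H3K4me3 regions (vertical axis) by width in bp on a log scale (horizontal axis), with the 720 regions of 5 kb or wider and the 8383 comparison regions of 1 to 3 kb shaded. The broad regions are the right tail of 1 continuous distribution, with no gap at 5 kb.

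Replicate 2 carried most of the width. It covered a median of 6050 bp of each member, against 5228 bp in replicate 1, and it listed 695 peaks of 5 kb or wider against 393. In replicate 1, 602 of the 720 members were a lone peak and the others were split into several, whereas 717 were a lone peak in replicate 2. At least 5 kb was covered in 420 members in replicate 1 and in 697 in replicate 2.

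The fold enrichment of a peak, as the authors' peak caller gave it, had a median over members of 10.7 in replicate 1 and 12.8 in replicate 2. In the 1 to 3 kb regions the medians were 7.15 and 8.54. The mean of both replicates ran from 2.58 to 27.1 over the members, so some broad regions were weak. Width and enrichment did not rise together within the members. The median fold was 12.2 ± 1.42 (SD, n = 2 libraries) in the 331 members of 5 to 6 kb, 11.9 ± 1.31 in the 257 of 6 to 8 kb and 10.7 ± 1.50 in the 132 of 8 kb or more.

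The regions just to each side of the 5 kb limit are given as examples. The narrowest members were chr9:108468315-108473317 (5003 bp), chr12:71551474-71556480 (5007 bp) and chr1:133421543-133426549 (5007 bp), with mean H3K4me3 folds of 9.90, 15.4 and 10.5. Just outside lay chr8:87359964-87364962 (4999 bp), chr16:64849286-64854283 (4998 bp) and chr19:53257926-53262921 (4996 bp), with mean folds of 9.69, 16.8 and 5.09. All 6 had a peak of every other mark and of ATAC in every library.

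Broad regions were often near other H3K4me3 regions. The median distance from a member to the nearest other H3K4me3 region was 14968 bp, against 24289 bp for the 1 to 3 kb regions. There were 72 pairs of neighbouring members within 50 kb of each other and 12 within 5 kb, and the narrowest gap was 1043 bp. Such pairs are not given for other regions, so these counts do not show whether members lie together more often than usual. By chromosome, members made up between 3.49% of H3K4me3 regions on chromosome 14 (16 of 459) and 7.32% on chromosome 13 (45 of 615) among the autosomes. On chromosome X 17 of 415 regions were members, and on Y none of 4.

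The widest member of all was chr8:24143686-24170408, at 26723 bp. In H3K4me3 replicate 2 it was 1 unbroken peak, and in replicate 1 it was 4 peaks covering 14461 bp, so its width rests on replicate 2. H3K27ac covered 100% of it in both libraries, as part of an acetylated region of 36546 bp, and H3K4me1 covered 92.2%, 91.6% and 91.9% in replicates 1, 2 and 3. Accessible chromatin lay at 2 sites in both ATAC libraries, which together took 4.65% and 4.34% of its bases, and in all 3 H3K4me1 libraries a gap lay over the left one.

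The next 4 by width were chr7:97277116-97297052 (19937 bp), chr8:108341450-108358026 (16577 bp), chr1:59017643-59033119 (15477 bp) and chr5:97425475-97440406 (14932 bp). The member on chromosome 7 was a lone peak in both H3K4me3 libraries and covered 19398 bp in replicate 1, so its width did not rest on 1 library. Each of these 4 was covered by H3K27ac over its whole length in both libraries and held 2 consensus ATAC sites, meaning accessible sites found in both libraries.

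The other 5 of the 10 widest were chr13:75844129-75858489, chr12:32733315-32747037, chr15:79513072-79526238, chr8:63450840-63463857 and chr13:22124675-22137662, of 12988 to 14361 bp. Only the first of them was not wholly acetylated, with 93.5% of its bases under H3K27ac in replicate 1 and 86.2% in replicate 2. The last had 2 ATAC peaks in replicate 1 and 8 in replicate 2, the widest disagreement between the ATAC libraries among these 10. All 10 overlapped 1 of the 500 widest H3K27ac regions.

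**Figure D2:**
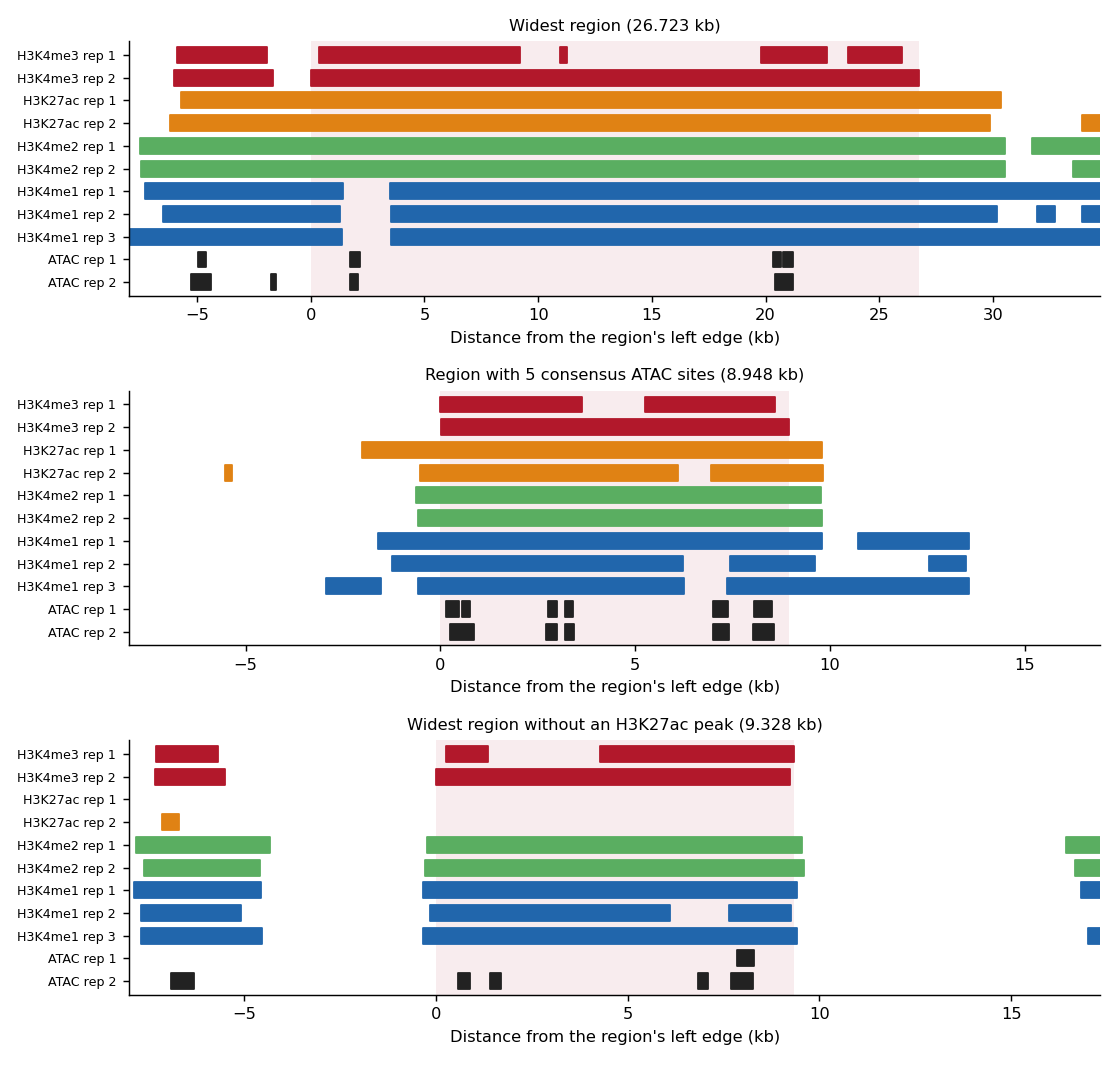
Peaks of every library (rows) over 3 members and 8 kb to each side, against the distance in kb from the member's left edge; the shaded box is the member. From top to bottom are the widest member (26.723 kb), a member with 5 consensus ATAC sites (8.948 kb) and the widest member without an H3K27ac peak (9.328 kb).

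Acetylation covered most of the bases of the broad regions. In H3K27ac replicate 1 86.4% of all bases of the members lay under a peak and in replicate 2 82.9%, against 55.8% and 49.8% for the 1 to 3 kb regions. The libraries did not overlap between the width classes, and the difference was 31.9 ± 1.82 percentage points (SD, n = 2 libraries; exact p = 0.5, the smallest possible). An H3K27ac peak in both libraries was found in 696 of 720 members (96.7%, exact Clopper-Pearson 95% interval 95.1% to 97.9%), with 68.2% as the share over all 13600 H3K4me3 regions and 68.3% in the 1 to 3 kb class. Some library titles share a date-like tag, and peaks of 5 kb or wider from 1 H3K4me3 library were therefore also paired with each H3K27ac library. The difference in acetylated bases was 29.6 points in the pair with a shared tag and 23.8, 27.2 and 32.1 points in the others.

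The contrast was smaller against narrow regions of high H3K4me3 fold. Against the 3209 regions of 1 to 3 kb whose mean H3K4me3 fold reached the lower quartile of the members, a comparison chosen after the data were seen, the share of acetylated bases was 84.6% against 69.1%. The share with any H3K27ac peak was then 97.1% in members and 97.8% in these strong narrow regions. The fold limit of 9.36 was put on the narrow regions only, and all members were kept. The 18 members without an H3K27ac peak in either library had mean folds of 3.44 to 7.36, below that limit. The classes were thus not matched in fold, and presence of the mark at equal fold was not compared.

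The extent of acetylation differed at the ends of the region. In the narrowest comparison regions the 500 bp windows at centre and ends overlap each other, which lessens any contrast between them there. In the 500 bp window at the centre, H3K27ac covered 90.7% and 87.3% of bases in members by library and 65.5% and 60.0% in the 1 to 3 kb regions, while strong narrow regions reached a mean of 91.0%. In the 500 bp windows just inside the ends, it covered 71.6% and 67.4% in members, against 42.2% and 36.2% in the 1 to 3 kb regions and a mean of 48.1% in the strong narrow ones. From 0.5 to 1 kb beyond the ends it still covered 42.1% and 37.8% in members, against 13.7% and 11.6%, and a mean of 6.07% beyond strong narrow regions.

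**Figure D3:**
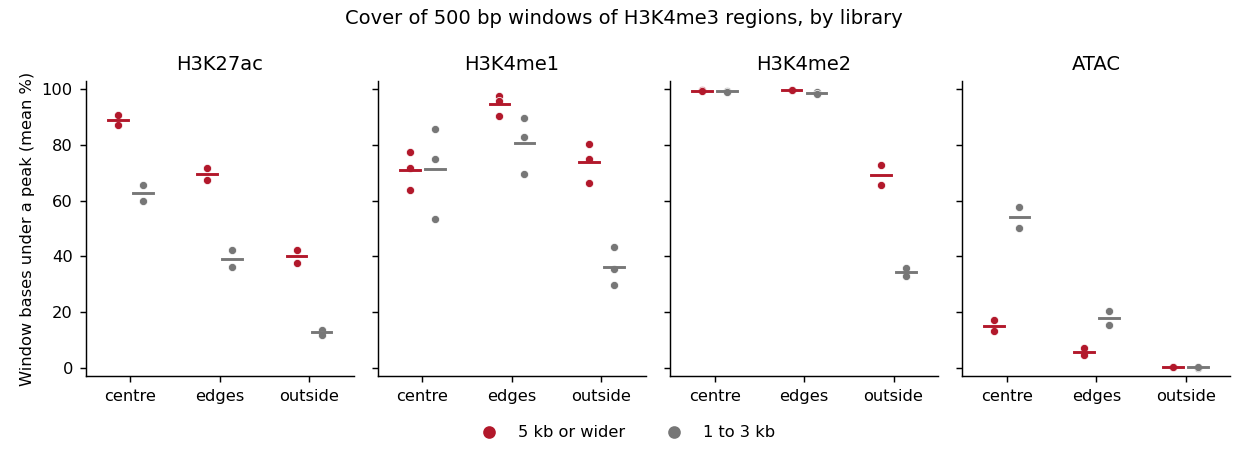
Mean share of bases under a peak (vertical axis, %) in 500 bp windows at the centre of each region, just inside its ends, and 0.5 to 1 kb outside them, for H3K27ac, H3K4me1, H3K4me2 and ATAC. Each point is 1 library and each line the mean over libraries; outside the ends all H3K27ac, H3K4me1 and H3K4me2 libraries lie higher for the regions of 5 kb or wider (red) than for those of 1 to 3 kb (grey).

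H3K27ac formed 1 peak in 613 members in replicate 1 and in 576 in replicate 2. It was split into 2 peaks in 85 members (11.8%) and 104 (14.4%), against 0.227% and 0.525% of the 1 to 3 kb regions, and into 3 or more in 4 and 16 members. A wider region has more room for several peaks. The whole of the region lay under H3K27ac in 269 members (37.4%) in replicate 1 and 228 (31.7%) in replicate 2, against 16.4% and 13.5% of the 1 to 3 kb regions. Acetylation ran at least 500 bp past both ends in 25.7% and 21.1% of members, against 9.83% and 8.84% of the comparison regions. The median fold enrichment of H3K27ac was 4.66 and 3.89 in members and 3.41 and 2.97 in the 1 to 3 kb regions.

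Overlap with the widest acetylated domains, by at least 1 bp, was found for a minority of the members. Among the members, 169 (23.5%, interval 20.4% to 26.7%) overlapped 1 of the 500 widest consensus H3K27ac regions, with 4.68% as the share over all 13600 regions and 3.59% in the 1 to 3 kb class. Taking the 500 widest of each H3K27ac library alone, the shares were 23.5% and 22.6% in members and 3.54% and 3.42% in the comparison class, a difference of 19.6 ± 0.505 points (SD, n = 2 libraries; exact p = 0.5). The 500 domains ran from 13938 to 74472 bp, so a wide H3K4me3 region had more bases with which to meet one, and this was not adjusted for. Seen from the domains, 153 of the 500 (30.6%) held a member and 412 (82.4%) held an H3K4me3 region of any width.

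The share rose with width: 14.5% of the members of 5 to 6 kb, 23.0% of those of 6 to 8 kb and 47.0% of those of 8 kb or more overlapped such a domain. The widest consensus H3K27ac region that a member met had a median width of 8472 bp over the 696 members that met one, against 1958 bp for the 1 to 3 kb regions.

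Most of the 153 domains held 1 member. There were 12 with 2 members and 1 with 5, and the latter was also the widest H3K27ac region of the series, chr13:23617565-23692036 (74472 bp). Its members were chr13:23621572-23631139, chr13:23632183-23638780, chr13:23646241-23655642, chr13:23661031-23670001 and chr13:23672789-23680030, from 6598 to 9568 bp wide. They held 4, 2, 4, 3 and 3 consensus ATAC sites and had mean H3K4me3 folds of 6.69 to 11.7. This domain was chosen after its values were seen, for its number of members.

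H3K4me1 was sparse at the accessible core of a broad region and dense toward its ends. At the strongest ATAC summit, the point of highest accessibility in the region, H3K4me1 was present in 48.7%, 27.4% and 37.5% of members in replicates 1, 2 and 3. In the 1 to 3 kb regions it was present at that point in 87.7%, 54.2% and 77.4%. Each library was lower in members than in the comparison class, by 35.3 ± 7.28 points on average (SD, n = 3 libraries; exact p = 0.25, the smallest possible) and the ranges did not overlap, with 48.7% as the highest member library and 54.2% as the lowest of the comparison class.

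This difference depended on the peak threshold. With only the peaks whose −log10 q was at least 5 (q is the peak caller's adjusted p), H3K4me1 was at the summit in 30.1% of members and 28.3% of the 1 to 3 kb regions. The value of the 1 to 3 kb class thus dropped far more than that of the members. Against the strong narrow regions at the full lists the values were 37.9% and 63.6%.

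Along the axis from the strongest summit, H3K4me1 returned within 2 kb. Moving toward the farther edge, it covered 37.8% ± 10.7 of members at the summit, 53.6% ± 9.05 at 1 kb, 85.6% ± 5.46 at 2 kb and 92.2% ± 3.93 at 3 kb (SD, n = 3 libraries). Toward the nearer edge it covered 85.1% ± 6.84 at 1 kb. In the 1 to 3 kb regions H3K4me1 was at 73.1% at the summit and had dropped to 28.2% by 3 kb, a point outside most of those regions.

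**Figure D4:**
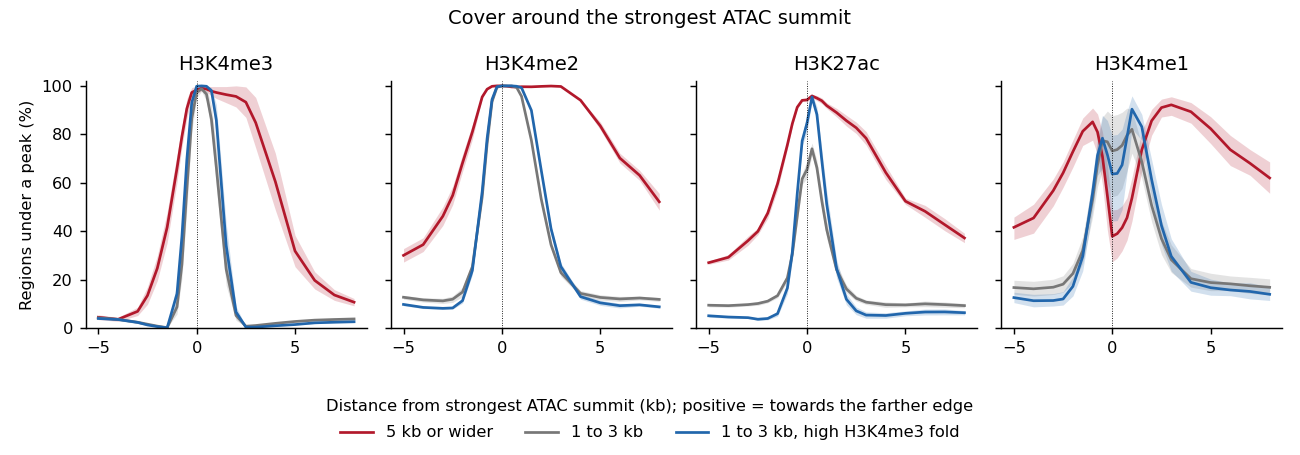
Share of regions under a peak (vertical axis, %) against distance in kb from the strongest ATAC summit (horizontal axis, positive toward the farther edge), for each mark. Lines are means over libraries and bands run from the lowest to the highest library; for H3K4me1 the members (red) dip to 37.8% at the summit, below the regions of 1 to 3 kb (grey) and the strong ones among them (blue).

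The dip was also counted in each member. H3K4me1 at both ends of the region together with none at the strongest summit was found in 49.9%, 60.7% and 58.3% of members in replicates 1, 2 and 3. In the 1 to 3 kb regions this arrangement was found in 8.27%, 18.9% and 12.7%, a difference of 43.0 ± 2.28 points (exact p = 0.25, the smallest possible), and in the strong narrow regions in a mean of 24.8%. Where the summit was free of H3K4me1, the free stretch had a median of 1522, 1978 and 1690 bp in members by replicate and of 1137, 1750 and 1226 bp in the 1 to 3 kb regions. The stretch was longer in members in each library, by much less than the regions themselves differed in width. The 1 to 3 kb regions had a median width of 1900 bp, which leaves little room for such a stretch between covered ends. The choice by width thus itself lowers this count in them, and the difference is not separate evidence of a dip. The count was not repeated at a −log10 q of at least 5.

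A share of the whole region did not show this. H3K4me1 covered 83.3%, 70.8% and 78.2% of all bases of the members and 88.1%, 62.6% and 79.6% of those of the 1 to 3 kb regions, a difference of 0.66 ± 6.68 points with 1 library up and 2 down. At the geometric centre of the region it covered 77.4%, 63.8% and 71.8% in members against 85.9%, 53.4% and 75.1%, a difference of -0.48 ± 9.77 points (exact p = 1.0). Neither difference was larger than the spread between libraries, and the second changed sign under most of the alternatives tried.

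Toward and beyond the ends, the members carried more H3K4me1 in every library. Just inside the ends it covered 97.5%, 90.5% and 95.7% of the windows in members, against 89.9%, 69.8% and 82.8%, and a mean of 90.6% in strong narrow regions. With a −log10 q of at least 5 the means there were 67.6% and 32.3%, and any H3K4me1 peak was found in 83.1% of members and 36.5% of the 1 to 3 kb regions. From 0.5 to 1 kb outside it covered 80.3%, 66.3% and 74.98% in members, against 43.3%, 29.7% and 35.3%, a difference of 37.7 ± 1.70 points (SD, n = 3 libraries; exact p = 0.25). The lowest member library lay above the highest library of the comparison class, and strong narrow regions had a mean of 38.5%. H3K4me1 extended at least 500 bp past both ends in 76.5%, 55.6% and 68.1% of members and in 34.1%, 20.3% and 26.3% of the 1 to 3 kb regions. A peak of H3K4me1 in all 3 libraries was present in 710 members (98.6%), with 83.4% over all H3K4me3 regions.

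H3K4me2 lay over every member. All 720 had a peak in both H3K4me2 libraries, with 99.4% as the share over all H3K4me3 regions. From end to end, H3K4me2 covered 97.8% and 98.1% of members and 95.9% and 93.0% of the 1 to 3 kb regions. By cover, the classes differed mainly outside the region. From 0.5 to 1 kb beyond the ends it covered 65.6% and 72.8% in members against 33.0% and 35.9%, a difference of 34.8 ± 3.03 points (SD, n = 2 libraries; exact p = 0.5). It reached 500 bp past both ends in 59.2% and 68.6% of members and in 22.6% and 27.1% of the 1 to 3 kb regions. At 5 kb from the strongest summit toward the farther edge, 83.5% ± 2.24 of members were still under H3K4me2, 82.3% ± 5.66 under H3K4me1, 52.4% ± 1.84 under H3K27ac and 31.8% ± 9.15 under H3K4me3. This point lay outside most members, since the median distance to the farther edge was 4639 and 4654 bp by ATAC library. The H3K4me3 value there follows from the widths that chose the members.

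Accessible chromatin in proerythroblasts was nearly universal in the members and took up little of them. An ATAC peak in both libraries was found in 706 of 720 (98.1%, interval 96.8% to 98.9%), with 79% as the share over all H3K4me3 regions. In ATAC replicates 1 and 2, 15.0% and 18.5% of all bases of the members lay under a peak, against 29.6% and 35.4% for the 1 to 3 kb regions, a difference of -15.8 ± 1.61 points (SD, n = 2 libraries; exact p = 0.5). The central 500 bp was accessible over 13.3% and 17.0% of its bases in members and over 50.2% and 57.8% in the comparison class. With few sites per region, both shares tend to be lower in a wider region. The choice by width thus itself lowers them in members, and this was not adjusted for. Any ATAC peak was found in 98.8% of members and in 99.1% of strong narrow regions. The fold limit was put on those narrow regions only, so presence at equal H3K4me3 fold was not compared.

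Several accessible sites per region were common. Members held a mean of 1.88 and 2.27 ATAC peaks in replicates 1 and 2, against 0.946 and 1.06 in the 1 to 3 kb regions, a difference of 1.07 ± 0.194 (SD, n = 2 libraries; exact p = 0.5). At least 2 consensus ATAC sites were found in 382 members (53.1%), with 10.1% over all H3K4me3 regions, and at least 3 in 126 (17.5%), with 1.43% over all. A wider region has more room, and per 10 kb the members held fewer peaks, 2.80 and 3.38 against 4.92 and 5.54. With few sites per region, the number per 10 kb in turn tends to be lower in a wider one.

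The number of sites varied widely among members. In replicate 1, 266 members had 1 ATAC peak, 281 had 2, 126 had 3 and 36 had 4 or more, and in replicate 2 the numbers were 182, 266, 167 and 98. The 3 members with the most consensus sites, 5 each, were chr11:98441371-98450318, chr7:16984044-16992050 and chr10:127527914-127535589, from 7676 to 8948 bp wide. On the chromosome 7 member ATAC peaks took 27.1% and 32.8% of the bases, and the strongest had a fold of only 5.77 and 5.66, below the median of 7.38 and 7.06 for the strongest peak of a member. None of the 3 overlapped 1 of the 500 widest H3K27ac regions.

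In members the strongest accessible site lay closer to an edge, relative to width, than in the 1 to 3 kb regions. Its summit was a median of 23.3% and 22.7% of the region's width from the nearer edge in members, against 33.6% and 33.0% in the 1 to 3 kb regions. The exact middle would be 50%, the most this measure can reach. Summits spread evenly along a region would also fall well below 50%, so the values of members do not by themselves show a preferred place. In bases this was 1477 and 1472 bp to the nearer edge and 4639 and 4654 bp to the farther one. The comparison class had 625 and 604 bp to the nearer edge and 1295 and 1291 bp to the farther one. Members with only 1 summit were as far off centre, at 24.5% and 23.7%. Strong narrow regions had a mean of 32.9%.

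The strongest site of a broad region was not a stronger one. Its median fold enrichment was 7.38 and 7.06 in members and 8.44 and 9.11 in the 1 to 3 kb regions, a difference of -1.55 ± 0.699 (SD, n = 2 libraries; exact p = 0.5). H3K27ac was present at this summit in 95.1% and 93.4% of members, against 69.1% and 61.9%, and against a mean of 84.7% in strong narrow regions.

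**Figure D5:**
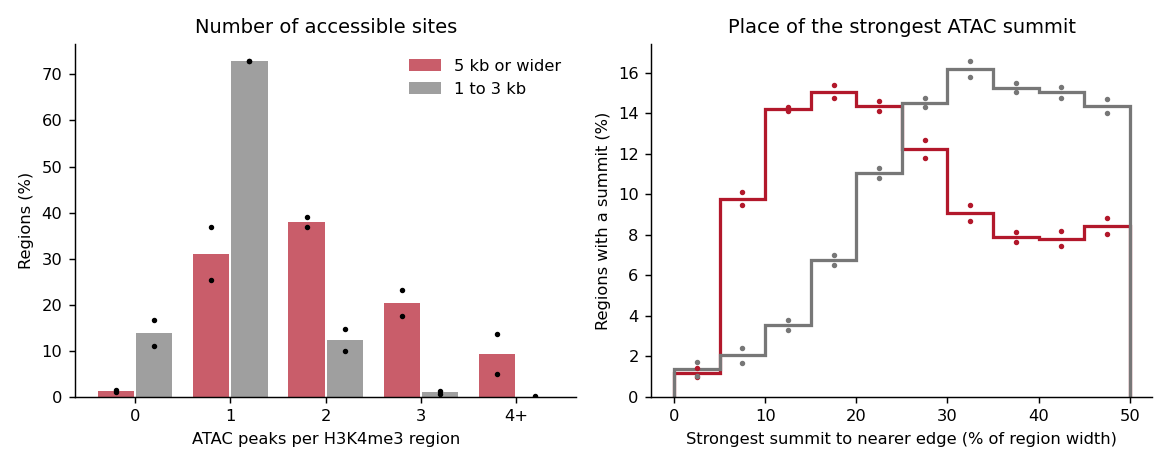
Left, share of regions (%) by number of ATAC peaks; right, share of regions with a summit (%) by distance from the strongest summit to the nearer edge as a percentage of region width. Bars and lines are means of 2 ATAC libraries and points are single libraries; members (red) most often held 2 peaks and had the strongest summit 10% to 25% of the width from an edge, and regions of 1 to 3 kb (grey) most often held 1.

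More than 1 summit lay within 443 members in replicate 1 and 530 in replicate 2, and these were ranked by fold. The second had a median fold of 4.57 and 4.45 and the strongest 7.13 and 6.79. In the 1 to 3 kb regions with more than 1 summit the values were 4.21 and 4.05 for the second and 7.38 and 8.00 for the strongest. The summits were a median of 1872 and 2222 bp apart. They lay 3 kb or more apart in 153 members in replicate 1 and 195 in replicate 2, and under 1.5 kb apart in 183 in each.

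Distant second sites carried H3K4me1 far more often than the strongest site of the same region. In members whose summits were 3 kb or more apart, H3K4me1 covered the strongest summit in 59.9%, 40.3% and 47.2% of cases in H3K4me1 replicates 1, 2 and 3. It covered the second summit in 84.1%, 73.5% and 78.2%. Every library was higher at the second summit, by 29.5 ± 4.62 points (SD, n = 3 libraries; exact p = 0.25, the smallest possible), and the ranges did not overlap. High H3K4me1 at such distances was not particular to second summits. Over all members it covered a mean of 92.2% of points 3 kb from the strongest summit toward the farther edge and 89.3% at 4 kb.

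At the midpoint between those distant summits H3K4me1 was present in 93.1%, 87.9% and 91.3%. When the summits were under 1.5 kb apart, H3K4me1 was present at the strongest in 41.5%, 19.95% and 30.3%, at the second in 47.8%, 26.2% and 39.1% and at the midpoint in 47.5%, 25.7% and 38.8%. Between close summits H3K4me1 was thus about as frequent as at the second summit. Whether both summits lay in 1 stretch free of H3K4me1 was not counted. H3K27ac did not follow this pattern and covered 95.3% ± 2.29 of strongest summits, 94.9% ± 1.32 of second summits and 91.3% ± 1.78 of midpoints in the members with distant summits (SD, n = 2 libraries).

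Wider members were more acetylated and had more sites, at a lower density. From 5 to 6 kb, 6 to 8 kb and 8 kb or more, H3K27ac covered 81.6% ± 2.99, 84.6% ± 2.51 and 88.9% ± 1.72 of bases (SD, n = 2 libraries). ATAC peaks per region went from 1.78 ± 0.207 to 2.09 ± 0.237 and 2.81 ± 0.536, and peaks per 10 kb from 3.26 ± 0.380 to 3.10 ± 0.351 and 2.85 ± 0.542. The order of the means held for each of these, but neighbouring classes of peaks per 10 kb differed by less than the spread between libraries. For H3K27ac the step from the narrowest class to the next was about as large as that spread. The same libraries measured all classes. The lowest library value of peaks per 10 kb went from 2.99 to 2.85 and 2.46, and the highest from 3.53 to 3.34 and 3.23. For H3K27ac these went from 79.5% to 82.8% and 87.7%, and from 83.7% to 86.4% and 90.1%. Steps within a library were not tested.

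Members also differed among themselves with the strength of H3K4me3. In the 180 members of lowest mean fold, up to 9.36, H3K27ac covered 71.7% ± 2.94 of bases, and in the next 3 groups of 180 by rising fold it covered 87.0% ± 2.64, 88.5% ± 2.68 and 88.1% ± 2.19. H3K4me1 went the other way, from 83.6% ± 7.84 in the weakest group through 79.8% ± 6.85 and 75.2% ± 6.92 to 68.1% ± 4.29 in the strongest, which began at a fold of 14.1 (SD, n = 3 libraries). Median widths of these groups lay between 5940 and 6288 bp. The median fold of the strongest ATAC peak went from 6.46 ± 0.160 in the weakest group to 7.76 ± 0.404 in the strongest (SD, n = 2 libraries).

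The strongest members were not the widest. The highest mean H3K4me3 fold, 27.1, belonged to chr7:142902842-142909351 (6510 bp), with 23.9 in replicate 1 and 30.4 in replicate 2. The next were chr16:32608127-32615600 (7474 bp, mean fold 23.7) and chr11:31769566-31779621 (10056 bp, mean fold 23.0). All 3 had every mark and ATAC in every library. The chromosome 11 region had 1 ATAC peak in each library, with folds of 12.4 and 13.02, high among strongest peaks of members, whose 95th percentile was 10.8 and 10.5.

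Nearly all members carried the full set of signals. Peaks of H3K27ac, H3K4me1, H3K4me2 and ATAC in every library of each were found together in 691 members (96.0%, interval 94.3% to 97.3%), with 63.2% over all H3K4me3 regions and 63.3% in the 1 to 3 kb class. A wider region also meets a peak more easily. In strong narrow regions any peak of H3K27ac, H3K4me1 and ATAC was found in a mean of 97.8%, 99.5% and 99.1%. In members the means were 97.1%, 99.2% and 98.8%, so presence of each signal was not particular to broad regions. The fold limit was put on the narrow regions only, and the full set was not counted in them. Among the members the exceptions were few.

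No H3K27ac peak was listed in either library for 18 members (2.5%, interval 1.49% to 3.92%), with 27.5% over all H3K4me3 regions. Their mean H3K4me3 folds ran from 3.44 to 7.36 with a median of 5.00, all below the median of 11.8 for members, and their median width was 5767 bp. Of the 18, 13 had an ATAC peak in both libraries, 2 in 1 library and 3 in none. No H3K27ac peak together with ATAC in both libraries thus occurred in 1.81% of members, with 11.9% over all H3K4me3 regions.

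The widest of these was chr11:68930846-68940173 (9328 bp). H3K4me3 covered 65.7% of it in replicate 1 and 99.1% in replicate 2, H3K4me2 covered 100% in both libraries, and H3K4me1 covered 100%, 82.9% and 100%. ATAC replicate 1 had 1 peak there and replicate 2 had 4, with strongest folds of 3.71 and 4.05. The other examples were chr11:120091371-120099593 (8223 bp) and chr11:18914160-18921121 (6962 bp), each with 1 ATAC peak in each library. In the last of them H3K4me1 covered 51.2% and 7.93% of bases in replicates 1 and 2 and none in replicate 3.

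Only 4 members (0.556%, interval 0.152% to 1.42%) had no ATAC peak in either library, with 12.3% over all H3K4me3 regions. The widest were chr2:115887857-115893549 (5693 bp), chr7:77501622-77507306 (5685 bp) and chr17:36002305-36007908 (5604 bp). These 3 also lacked H3K27ac in both libraries, a combination seen in 0.417% of members and in 10.1% of all H3K4me3 regions. They were weak, with mean H3K4me3 folds of 3.45, 3.44 and 4.49, and the first of them had no H3K4me1 peak in any library. H3K4me3 replicate 1 covered 2064, 2230 and 4508 bp of them, so each reached 5 kb through replicate 2 alone.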

How the data were processed

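Peak lists of 11 libraries were used. Per the submitters' processing notes, reads were processed with Trimmomatic 0.32, Bowtie 1.0.1, SAMtools and MACS2 on mm9. Not given in the sources used here are the settings, the MACS2 version, the control and any shift of ATAC cut sites, and the protocol text of the ATAC samples describes ChIP. The authors deposited 1 list per library, broad for ChIP and narrow for ATAC. Columns deposited per peak are the fold enrichment (a ratio to background), −log10 p, −log10 q and a score, and for ATAC a summit offset. The deposited score is 10 times the −log10 q without its decimals. Deposited folds describe peaks within a list and are not levels across marks.

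Peaks of each group were merged over chromosomes 1 to 19, X and Y, and 7 peaks elsewhere were set aside. Overlap meant at least 1 bp. No filter for artefact-prone sequence was applied. Shares of bases in members, in comparison regions and in the width classes pool the bases of all regions of a class. Shares in windows and in the groups by H3K4me3 fold are means over regions. A region's fold is the mean of its peaks weighted by overlap, and values at ATAC summits are means over both ATAC libraries. Regions were named by a rule: the 10 widest members, and 3 each with most ATAC sites, widest without H3K27ac, widest without ATAC, of highest H3K4me3 fold, and to each side of 5 kb. The members and lists were chosen with earlier results of these data known. Gene lists were not used, since no annotation of mm9 was used here. Exact Clopper-Pearson 95% intervals cover counting error only. They treat regions as independent, although several members can lie in 1 H3K27ac domain. The interval functions were tested on simulated data. Python 3.11.15, numpy 2.4.6, pandas 2.3.3, scipy 1.17.1 and matplotlib 3.10.9 were used. Alternatives were a −log10 q of at least 5, bases covered in both H3K4me3 libraries, an 8 kb limit, comparison regions of 2 to 3 kb, a 500 bp overlap, ATAC counted by summit, leaving out each library and, added after the data were seen, strong comparison regions.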

Additional observations from a re-analysis of the deposited data

How the results depend on the processing

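Depth is unknown, and how far peak widths depend on it was not tested. The number of members was 371 when width was counted over bases covered in both H3K4me3 libraries, 132 at an 8 kb limit and between 393 (without replicate 2) and 695 when 1 H3K4me3 library was used alone. Of the 10 widest, 9 stayed at 5 kb or more without replicate 2.

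Differences of members minus 1 to 3 kb regions are given here in percentage points. With peaks of −log10 q of at least 5, the H3K27ac share of bases differed by 38.5, the ATAC share by -18.2 and the overlap with the 500 widest H3K27ac regions by 21.3. H3K4me1 turned to 28.6 at the centre and 1.81 at the strongest ATAC summit, and the H3K27ac centre minus edge to 0.264. Over bases covered in both H3K4me3 libraries, H3K27ac differed by 24.9, H3K4me1 at the centre by 2.31, ATAC by -21.5 and the 500 widest by 25.6, and the H3K4me1 share of bases turned to -1.12. For members of 8 kb or wider the values were 36.1, 8.81, -19.4 and 46.5 in that order, with -24.1 for H3K4me1 at the summit and 1.805 more ATAC peaks per region. Against regions of 2 to 3 kb, H3K27ac differed by 23.8, H3K4me1 at the centre by 6.61 and at the summit by -25.9, and the 500 widest by 20.2.

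Against the strong narrow regions, chosen after the data were seen, H3K27ac differed by 15.5, H3K4me1 at the centre by 4.15 and at the summit by -25.7, ATAC by -20.7 and the 500 widest by 22.5. Turned in sign there were any peak of H3K27ac (-0.72), H3K4me1 (-0.304) and ATAC (-0.331), the H3K27ac centre (-2.004), H3K4me1 bases (-1.98) and centre minus edge (0.143), and H3K4me2 edge (-0.0697) and bases (-0.187). The fold limit was put on the narrow regions only and all members were kept, so the classes were not matched in fold. The cause of these changes was not tested.

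Leaving out each library in turn gave 25.5 to 33.1 for H3K27ac, -5.92 to 3.54 for H3K4me1 at the centre, -20.6 to -14.6 for ATAC bases, 0.934 to 1.21 for ATAC peaks, 19.2 to 24.5 for the 500 widest and -39.4 to -29.0 for H3K4me1 at the summit. The H3K4me1 share of bases gave -3.07 (without H3K4me1 replicate 2) to 3.36 (without H3K4me1 replicate 1), and -1.11 without H3K4me3 replicate 2. Of 233 other values over 25 differences, 12 changed sign. No paired analysis was possible because no groups of libraries were compared, so replicate numbers had nothing to pair across groups. The test over libraries pairs the width classes within each library.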
